A study of Mus musculus with 6 samples.

Results

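The proteasome is the large protease that degrades most ubiquitin-tagged proteins of the cytosol and nucleus. Its 20S core is a barrel of alpha and beta rings, in which the alpha subunits form the gate and 3 of the beta subunits cut peptide bonds. The 19S regulatory particle caps the barrel: its base unfolds substrates with a ring of ATPases, and its lid removes the ubiquitin chain. The genes considered here encode the constitutive subunits and the assembly chaperones that carry the same gene names. They were chosen by name, as the genes whose symbol is Psma, Psmb, Psmc or Psmd followed by a number, without the immunoproteasome subunits Psmb8, Psmb9 and Psmb10. The choice gave 36 of the 19938 genes that a probeset naming a single gene represents. Of the 36, 16 belong to the 20S core and 20 to the 19S particle with its chaperones.

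The genes were measured in primary osteoblasts, the bone-forming cells, grown out of the long bones of 3 male wild-type C57BL6/J mice aged 8 to 12 weeks. The cells were cultured to passage 2 to 3, kept in osteogenic medium for 14 days and moved on day 15 into normal proliferation medium for 4 h. One culture of each mouse stayed unstimulated in this medium, and the other received 100 ng/ml recombinant murine C5a, a complement fragment that signals through the receptor C5aR1. The cultures are numbered 2, 4 and 5 in both groups, and the numbers were taken as those of the mice, since the cells of each mouse were divided between the groups. The 6 arrays thus formed 3 pairs, and every change given here is C5a minus unstimulated within these pairs on the log2 scale. Values are log2 intensities after robust multiarray averaging (RMA), 1 probeset per gene, and they were not compared between genes. Array medians lay between 5.89 and 5.93. Markers of osteoblasts averaged between 10.1 and 11.9 in the unstimulated cultures and between 9.98 and 11.9 with C5a, while 5 endothelial markers stayed between 5.22 and 5.31 on all arrays. Single osteoblast markers differed between the mice. Unstimulated Ibsp was 11.75, 12.88 and 7.56 in mice 2, 4 and 5, and Dmp1 was 6.44, 9.20 and 6.01. Col1a1 differed less, at 13.45, 13.79 and 13.41. A joint list of 12 macrophage and osteoclast markers separated the mice. Their mean was 9.97 and 10.3 in the unstimulated cultures of mice 2 and 4 and 6.65 in that of mouse 5. The osteoclast genes of this list differed less in these cultures. In mice 2, 4 and 5, Ctsk was 10.82, 10.94 and 10.35 and Acp5 was 9.18, 8.56 and 7.97.

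The proteasome genes were slightly higher with C5a, most clearly in the lid. The median change of the 36 genes was 0.09, with a range from -0.08 to 0.52, and 27 of 36 lay above 0. Over all 19938 genes the median was -0.01, and 47.9% lay above 0. No proteasome gene passed the adjusted threshold of limma with the mouse as a block, where 0.0112% of all probesets did. The smallest adjusted p was 0.114. At an unadjusted p under 0.05, 7 of the 36 were higher and 0 lower, which is 19.4% of them. Among all genes 8.26% were higher and 11.9% lower at this level. Among the genes at or above the 40th percentile of mean values, to which 35 of the 36 belong, the shares were 11.6% and 16.7%. The thresholds of the study's methods, p under 0.05 with a change of at least 1.5-fold, were met by 0 of the 36 in either direction, against 2.22% of genes higher and 2.21% lower. Limma without the pairing called 0 of the 36 after adjustment, against 0.0141% of probesets, and placed 8 of them higher at an unadjusted p under 0.05, where it placed 6.2% of all genes. With the pairing, the count of 7 fell to 2 without mouse 2, to 3 without mouse 4 and to 4 without mouse 5. In these fits on 2 pairs 4.69%, 8.48% and 5.48% of all genes were higher at this level, so that the counts without mouse 2 and without mouse 4 were near the share of all genes.

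The median change had the same sign in each mouse. It was 0.11, 0.10 and 0.08 in mice 2, 4 and 5, and 27, 30 and 28 of the 36 genes were higher with C5a. In 21 genes, or 58.3%, the C5a culture exceeded its unstimulated partner in all 3 mice, as it did in 19% of all genes. Psmb6 and Psmd9 were lower in all 3 mice, a pattern held by 22.9% of all genes, and 0 of the 36 were after each array was centred on its median. The 3 C5a values lay wholly above the 3 unstimulated values for 13 of the 36, or 36.1%, against 8.67% of all genes. They lay wholly below for 0 of the 36, against 9.95% of all genes. The changes were small in absolute terms: 18 of the 36 stayed within 0.1 of 0. At the median standard error of 0.0754, a change of 0.20 was needed for an unadjusted p of 0.05.

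**Figure D1:**
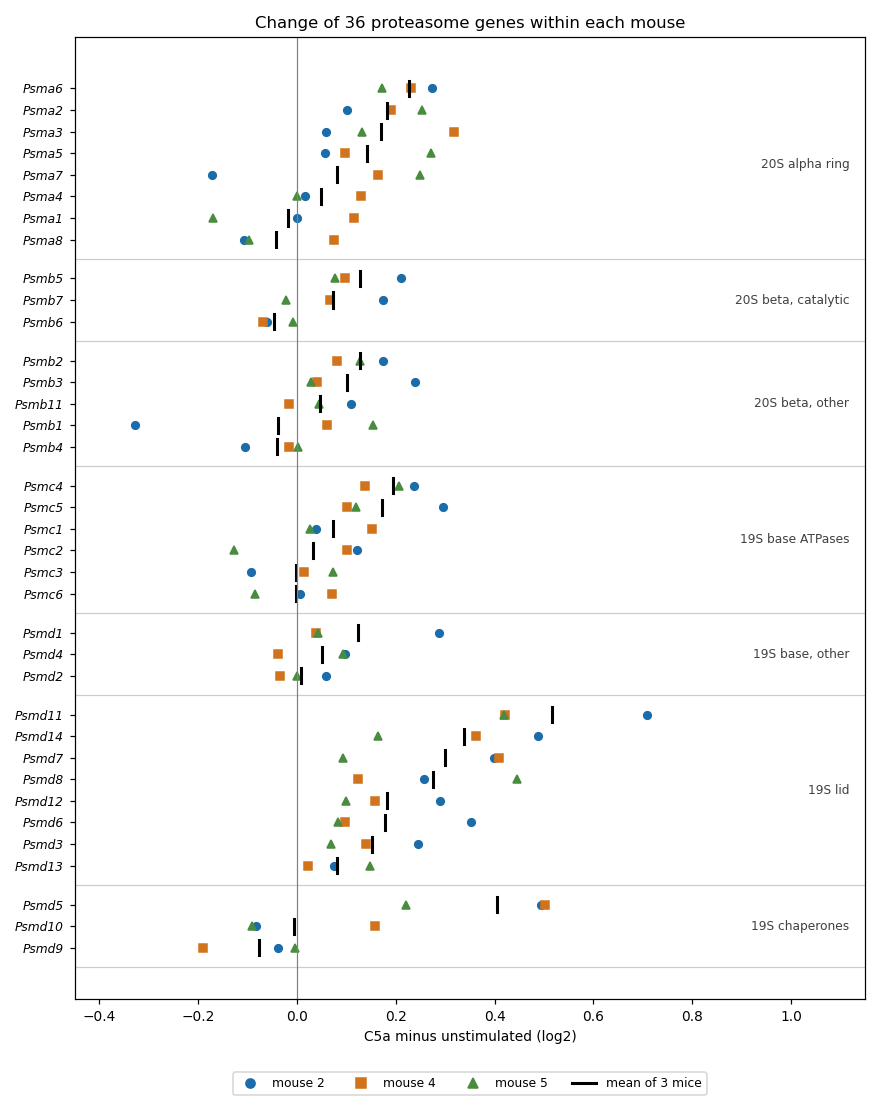
Change of the 36 proteasome genes within each mouse, as the log2 value with C5a minus the value without, grouped by role; points are single mice and black bars the mean of 3 mice. All 24 points of the 8 lid genes lie above 0, and Psmd5 is the only chaperone to the right of 0 in every mouse.

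The promoters of 3 of these genes are shown here, because Psmd11, Psmd5 and Psmd14 had the smallest p-values of the 36. Each line gives the 250 bases before the start of the RefSeq transcript in the mouse build GRCm38.p6, read 5′ to 3′ on the strand of the gene. Capitals mark matches to the Sp1 box GGGCGG, the NF-Y box CCAAT and the ETS core CCGGAAG, which appear as their reverse complement when the match is on the other strand. The stretches are chr11:80428365-80428614 on the plus strand for Psmd11, chr2:34870963-34871212 on the minus strand for Psmd5 and chr2:61711444-61711693 on the plus strand for Psmd14.
Psmd11: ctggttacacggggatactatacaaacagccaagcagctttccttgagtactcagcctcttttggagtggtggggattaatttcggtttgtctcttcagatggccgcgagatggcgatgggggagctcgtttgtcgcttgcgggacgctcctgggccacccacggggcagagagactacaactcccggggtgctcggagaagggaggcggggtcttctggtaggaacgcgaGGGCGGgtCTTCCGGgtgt
Psmd5: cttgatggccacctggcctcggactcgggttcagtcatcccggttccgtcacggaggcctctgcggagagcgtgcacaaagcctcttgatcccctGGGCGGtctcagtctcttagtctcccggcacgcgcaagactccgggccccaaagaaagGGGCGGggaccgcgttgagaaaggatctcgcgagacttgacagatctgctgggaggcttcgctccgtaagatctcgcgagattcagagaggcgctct
Psmd14: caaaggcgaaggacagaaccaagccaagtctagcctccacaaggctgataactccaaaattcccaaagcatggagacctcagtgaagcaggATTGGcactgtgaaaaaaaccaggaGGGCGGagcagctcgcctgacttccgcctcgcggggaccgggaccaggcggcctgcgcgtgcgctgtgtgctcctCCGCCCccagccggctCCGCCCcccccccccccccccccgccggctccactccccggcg
Counted backward from the start, with -1 as the last base shown, the Psmd11 promoter held an Sp1 box beginning at -19 and an ETS core beginning at -11. The Psmd5 promoter held Sp1 boxes beginning at -155 and -97, and that of Psmd14 held 3 Sp1 boxes and 1 NF-Y box in these 250 bases. No letters of the antioxidant response element core were found in any of the 3. A match is a description of the letters and does not show binding.

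The lid of the 19S particle had the highest median change of the 7 role groups. Its 8 genes were all higher in all 3 mice, with a median of 0.23 and a range from 0.08 to 0.52. By mouse, the lid medians were 0.32, 0.15 and 0.12 for mice 2, 4 and 5, and leaving out 1 mouse gave medians from 0.19 to 0.23. At an unadjusted p under 0.05, 4 of the 8 were higher, and 6 of the 8 had groups that did not overlap. The other 28 genes had a median of 0.06, with 19 above 0, 3 higher at an unadjusted p under 0.05 and 7 without overlap. Of all genes, 8.26% were higher at this level, so that the count of 3 was near that share. In all 3 mice 19% of all genes were higher, and 8.67% were higher without overlap. The difference between the lid and the rest was not tested.

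Psmd11 encodes the lid subunit that braces the lid against the ATPase ring and the alpha ring. Its unstimulated values were 10.04, 10.09 and 10.13 in mice 2, 4 and 5, and its C5a values were 10.74, 10.51 and 10.55. All C5a values lay above all unstimulated values, and mouse 2 showed the widest gap. The change was 0.52 with a standard error of 0.09, or 1.43-fold, and its 95% confidence interval ran from 0.28 to 0.75 (adjusted p = 0.114 in limma). This was the highest change among the 36 genes. The group means were 10.09 ± 0.05 and 10.60 ± 0.12 (SD, n = 3).

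Psmd14 encodes the metalloprotease that cuts the ubiquitin chain off the substrate as it enters the proteasome. It measured 9.52, 9.62 and 9.66 without and 10.01, 9.98 and 9.82 with C5a. The groups did not overlap, although the gap in mouse 5 was the narrowest of the 3. The change was 0.34 with a standard error of 0.09 (adjusted p = 0.179 in limma), or 1.26-fold. Psmd7 encodes the partner that forms a dimer with this deubiquitinase and has no catalytic activity of its own. It measured 9.46, 9.63 and 9.57 without and 9.86, 10.04 and 9.67 with C5a, a change of 0.30 with a standard error of 0.09 (adjusted p = 0.228). Its groups were just separated, since the C5a value of mouse 5 came close to the unstimulated value of mouse 4.

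Psmd8, a lid subunit that joins late in lid assembly, differed in which mouse led. It measured 9.49, 9.63 and 9.56 without and 9.75, 9.76 and 10.01 with C5a, a change of 0.28 with a standard error of 0.09 (adjusted p = 0.241). Here mouse 5 had the widest gap, and the groups did not overlap. The remaining lid genes encode scaffold subunits of the horseshoe around which the lid is built. Their changes were 0.18 for Psmd12, 0.18 for Psmd6, 0.15 for Psmd3 and 0.08 for Psmd13. The groups did not overlap for Psmd6 and Psmd3, and they overlapped for Psmd12 and Psmd13. None of these 4 had an unadjusted p under 0.05.

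**Figure D2:**
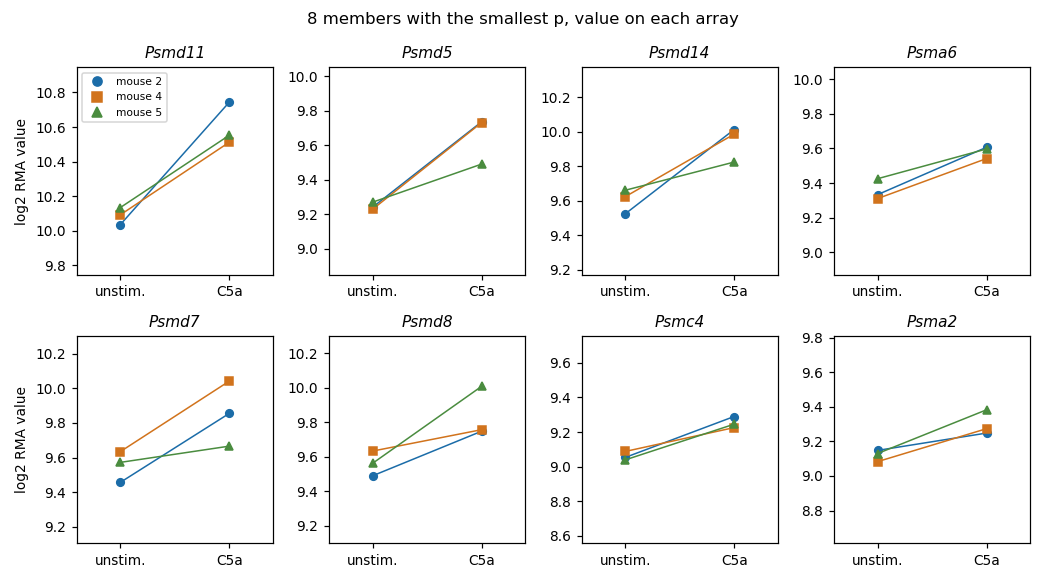
Log2 RMA value on each of the 6 arrays for the 8 proteasome genes with the smallest p; lines join the 2 cultures of a mouse, and every panel spans the same height but starts at its own level. In all 8 panels the 3 C5a points lie above the 3 unstimulated points, by the widest margin in Psmd11.

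The base of the 19S particle carries the ring of 6 ATPases that opens the gate and pulls the substrate in. Their median change was 0.05, with 4 of 6 above 0 and 3 higher in all 3 mice, as were 19% of all genes. The median of the ATPases was 0.01 without mouse 4 and 0.10 without mouse 5. Psmc4 was the only ATPase gene with an unadjusted p under 0.05. It measured 9.05, 9.09 and 9.04 without and 9.29, 9.23 and 9.25 with C5a, a change of 0.19 with a standard error of 0.07 (adjusted p = 0.273 in limma). Its groups did not overlap, and the 3 mice lay close together in both. Psmc5 changed by 0.17, also without overlap, whereas Psmc1 changed by 0.07, Psmc2 by 0.03, Psmc3 by -0.00 and Psmc6 by -0.00. Among the other base genes, the scaffold subunits Psmd1 and Psmd2 changed by 0.12 and 0.01. The ubiquitin receptor Psmd4 changed by 0.05. All 3 had overlapping groups.

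The assembly chaperones of the base bind the ATPases while the ring forms and leave before the particle is complete. They did not move together. Psmd5, one of the 3, measured 9.24, 9.23 and 9.27 without and 9.74, 9.73 and 9.49 with C5a. All C5a values lay above all unstimulated values, which had an SD of 0.02 (n = 3). The change was 0.41 with a standard error of 0.09, or 1.32-fold (adjusted p = 0.141 in limma), the second highest of the 36. Psmd10, also known as gankyrin, changed by -0.01, with mouse 4 higher and mice 2 and 5 lower. Psmd9 changed by -0.08, the lowest of the 36, with an adjusted p of 0.739.

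The alpha ring of the 20S core forms the gate through which the substrate enters. Its 8 genes had a median change of 0.11, with 6 above 0, 5 higher in all 3 mice and 4 without overlap. Of all genes, 19% were higher in all 3 mice and 8.67% were higher without overlap. The median of the 8 alpha genes was 0.19 without mouse 2, 0.07 without mouse 4 and 0.08 without mouse 5. Psma6 had the smallest p of these, with 9.33, 9.31 and 9.43 without and 9.61, 9.54 and 9.60 with C5a. The change was 0.23 with a standard error of 0.07 (adjusted p = 0.218 in limma), and it was of similar size in each mouse. Psma2 measured 9.15, 9.08 and 9.13 without and 9.25, 9.27 and 9.38 with C5a, a change of 0.18 with a standard error of 0.07 and an unadjusted p of 0.0552 (adjusted p = 0.324). Its groups did not overlap either. Psma3 and Psma5 changed by 0.17 and 0.14, both without overlap. Psma7 changed by 0.08, but its mice disagreed, with -0.17 in mouse 2, 0.16 in mouse 4 and 0.25 in mouse 5. Psma4 changed by 0.05 and Psma1 by -0.02. Psma8, an alpha subunit known from the testis, was below the 40th percentile of all probesets (5.33). Its values were 5.19, 5.12 and 5.16 without and 5.08, 5.20 and 5.06 with C5a, a change of -0.04 (adjusted p = 0.883).

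The 3 catalytic subunits of the beta ring showed no call and no shared direction. Psmb5, which carries the chymotrypsin-like activity that proteasome inhibitors mainly target, measured 9.26, 9.39 and 9.20 without and 9.47, 9.48 and 9.27 with C5a. It was higher in all 3 mice with overlapping groups, and the change was 0.13 with a 95% confidence interval from -0.06 to 0.31 (adjusted p = 0.495 in limma). Psmb6, with the caspase-like activity, measured 10.68, 10.87 and 10.58 without and 10.62, 10.80 and 10.58 with C5a. Its change was -0.05, with an interval from -0.22 to 0.13 (adjusted p = 0.848). Psmb7, with the trypsin-like activity, measured 9.80, 10.04 and 10.02 without and 9.97, 10.10 and 9.995 with C5a. Its change was 0.07, with an interval from -0.12 to 0.27 (adjusted p = 0.759). The intervals of all 3 genes include 0, and those of Psmb5 and Psmb7 also include the changes of several lid genes.

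The non-catalytic beta subunits changed by 0.13 for Psmb2, 0.10 for Psmb3, -0.04 for Psmb1 and -0.04 for Psmb4, all with overlapping groups. Psmb1 had the widest disagreement between mice, with -0.33 in mouse 2, 0.06 in mouse 4 and 0.15 in mouse 5. Psmb11 encodes a catalytic subunit known from the thymus. It measured 5.66, 5.46 and 5.47 without and 5.77, 5.44 and 5.51 with C5a, a change of 0.05 (adjusted p = 0.857). Of the 36 genes, 34 were brighter than the median probeset, and Psma8 and Psmb11 were the other two.

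For 5 genes several probesets were present, and they can share probes with near-identical copies of the gene. The second probeset of Psmb3 gave 0.19 with groups that did not overlap and an unadjusted p of 0.0350 in limma, where the brighter one gave 0.10 with overlap. The second probeset of Psma5 gave 0.07, with -0.17, -0.01 and 0.38 in the 3 mice, against 0.14 for the brighter one. The 3 probesets of Psma3 lay between 0.16 and 0.17. The further probesets of Psmc1 and Psmd2 gave 0.10 and 0.03, close to the 0.07 and 0.01 of those used.

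**Figure D3:**
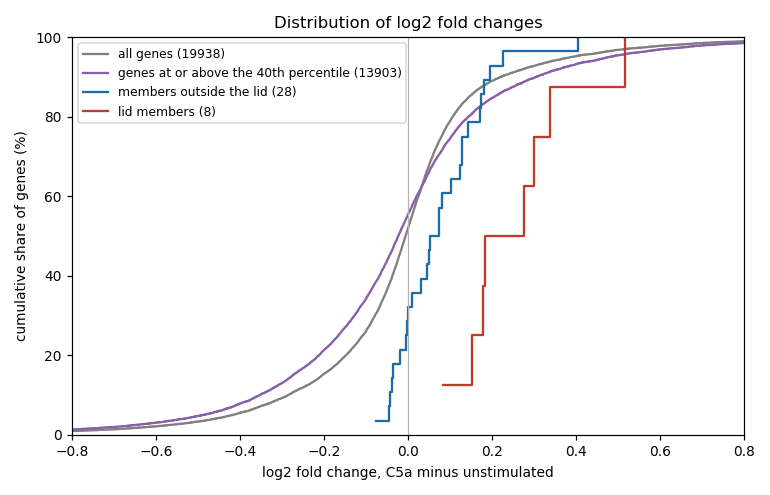
Cumulative share of genes against the log2 change with C5a, for all 19938 genes, the 13903 genes at or above the 40th percentile, the 28 proteasome genes outside the lid and the 8 lid genes. The lid curve starts at 0.08 and reaches 50% by 0.18, while the curves of all genes cross 50% just below 0.

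The spread between mice was small for the proteasome genes. The median SD of the 3 unstimulated cultures was 0.0697 over the 36 genes, against 0.103 over all genes and 0.128 over those at or above the 40th percentile. With C5a the medians were 0.101, 0.118 and 0.148. The mean levels of the 3 mice differed by a median of 0.131 over the 36 genes and 0.168 over all genes. For genes at or above the 40th percentile this median was 0.216. The largest difference among the 36 was 0.30, in Psma7. A difference of 1 or more was seen in 864 of the 19938 genes and in 0 of the 36, which is near that share. These are descriptions, since the genes share arrays.

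The immunoproteasome genes, which replace the catalytic subunits in immune cells and after interferon, did not follow the constitutive genes. Psmb8 measured 8.66, 8.35 and 7.10 without and 8.00, 7.91 and 7.32 with C5a. It was lower with C5a in mice 2 and 4 and higher in mouse 5, for a change of -0.30 with a standard error of 0.18 (adjusted p = 0.553 in limma). Psmb9 and Psmb10 changed by -0.31 and -0.33 (adjusted p = 0.342 for both), with the same split between mice. For the PA28 activator, which opens the core gate without ATP, Psme1 changed by -0.20 and was lower in all 3 mice (adjusted p = 0.389), and Psme2 changed by 0.04. The median of these 5 genes was -0.45, -0.44 and 0.04 in mice 2, 4 and 5. None had an unadjusted p under 0.05. The medians of the 12 macrophage and osteoclast markers showed the same split, at -0.34, -0.40 and 0.14. Their mean levels with C5a were 9.64, 9.89 and 6.78. In mouse 5, 9 of the 12 were higher. Ptprc, Adgre1 and Ctss were lower in all 3 mice, and only these 3 had an unadjusted p under 0.05 in limma. Unstimulated values in mouse 5 were 4.99 for Ptprc, 5.61 for Adgre1, 4.83 for Fcgr3, 5.18 for Itgam and 5.78 for Tyrobp. These values lay below the median of that array, 5.93. In bulk RNA, fewer cells of a type and less RNA per cell cannot be told apart, and the part of these markers in the immunoproteasome values was not tested. The medians of the 36 proteasome genes were 0.11, 0.10 and 0.08 in mice 2, 4 and 5. Those of the lid were 0.32, 0.15 and 0.12, and those of the catalytic beta genes 0.17, 0.07 and -0.01. The part of the marker cells in these values was not tested either.

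Single markers of osteoblasts and of other cell types also differed between the groups. Of 7 osteoblast markers, Ibsp changed by -0.43 (adjusted p = 0.131 in limma) and Alpl by -0.19 (adjusted p = 0.396). Both, and Col1a2 at -0.05, were lower in all 3 mice with overlapping groups, where 22.9% of all genes were lower in all 3. The median of the 7 was -0.01. Of 5 smooth muscle and pericyte markers, Cspg4 changed by 1.70 (adjusted p = 0.149 in limma) and Des by 1.30 (adjusted p = 0.112), both higher in all 3 mice without overlap, and the median of the 5 was 0.03. The mean level of these 5 genes ranged from 5.82 to 7.44 without and from 6.91 to 7.52 with C5a. Of 5 chondrocyte markers, Sox9 changed by -0.71 (adjusted p = 0.0986) and was lower in all 3 mice without overlap, while the median was -0.03. Of 4 adipocyte markers, Lpl changed by -0.64 (adjusted p = 0.261), with overlapping groups, and the median was -0.25. The change of Lpl was -0.82, -1.09 and -0.02 in mice 2, 4 and 5. The part of these cell types in the proteasome values was not tested.

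Other proteins bind the proteasome or help to build it. Of the 10 such activators, inhibitors and associated proteins measured, Sem1 included, 2 were higher and 1 lower at an unadjusted p under 0.05. The median of the 10 was 0.04. At this level 8.26% of all genes were higher and 11.9% lower. Usp14, a deubiquitinase that docks on the base and trims chains, measured 8.23, 8.37 and 8.38 without and 8.82, 8.87 and 8.61 with C5a, without overlap. Its change was 0.44 with a standard error of 0.10 (adjusted p = 0.141 in limma), similar in size to Psmd5. Psme3, the nuclear activator PA28 gamma, changed by 0.44 (adjusted p = 0.154) and Zfand5, a proteasome-binding zinc finger protein, by -0.36 (adjusted p = 0.20). Among the 5 measured chaperones of 20S assembly the median was 0.02. Psmg3 changed by 0.25 (adjusted p = 0.199), Psmg1 by -0.15 and Pomp, the maturation factor of the beta rings, by 0.06 (adjusted p = 0.792).

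Transcription of proteasome genes is known to be raised by NRF1, encoded by Nfe2l1, when the proteasome is impaired, and NRF2, encoded by Nfe2l2, drives antioxidant genes. The mRNAs of both showed little difference, with 0.05 for Nfe2l1 (adjusted p = 0.843) and -0.00 for Nfe2l2 (adjusted p = 0.995 in limma). Of the 10 measured genes of this control, both factors included, 2 were higher and 2 lower at an unadjusted p under 0.05. The shares of all genes at this level were 8.26% higher and 11.9% lower. Ngly1, the glycanase that activates NRF1, changed by -0.53 (adjusted p = 0.116), and its unstimulated values of 8.05, 8.01 and 7.94 all lay above its C5a values of 7.39, 7.69 and 7.32. Syvn1, the ubiquitin ligase of the endoplasmic reticulum that marks NRF1, changed by 0.33 (adjusted p = 0.169). Keap1, the adaptor that marks NRF2 for degradation, changed by -0.32 (adjusted p = 0.255).

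The antioxidant targets of NRF2 differed far more in size than the proteasome genes. Their median over 11 genes was 1.04, 9 were higher at an unadjusted p under 0.05 and 7 of these also by at least 1.5-fold. Of all genes, 8.26% met the first condition and 2.22% both. Srxn1, which repairs oxidised peroxiredoxins, changed by 1.81 (adjusted p = 0.0704). Txnrd1, a thioredoxin reductase, changed by 1.81 (adjusted p = 0.0811), and Gclc, the catalytic subunit of glutathione synthesis, by 1.22 (adjusted p = 0.0764 in limma). None of the 11 passed the adjusted threshold.

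Promoter windows of 300 bases, from 250 before the start to 50 after it, were found for 29 of the 36 genes, in 31 windows, and not for Psma8, Psmb1, Psmb2, Psmb7, Psmc3, Psmd3 and Psmd7. The core of the antioxidant response element, TGACNNNGC on either strand, occurred in 5 windows (16.1%), against 12.4% of all 32851 windows and 13.9% of those of brighter genes. The 5 genes were Psmb5, Psmb6, Psmc6, Psmd12 and Psmd9, and their median change was -0.00, against 0.11 for the 24 genes without it. The ETS core occurred in 35.5% of the windows, against 8.86% of all and 15.0% of those of brighter genes. The 10 genes with it had a median change of 0.08, and the 19 without it 0.12. The Sp1 box occurred in 58.1%, near the 59.4% of brighter genes, and the NF-Y box in 38.7%, near their 36.7%. The CRE palindrome TGACGTCA occurred in 0 of the 31 windows, against 1.79% of all. These letters were searched without regard to overlap between motifs, and their presence was not tested against the changes.

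Further complexes were set beside the proteasome, because the COP9 signalosome and the translation factor eIF3 share the subunit plan of the lid, and the CCT chaperonin is another large stable complex. The COP9 signalosome, which removes the NEDD8 tag from cullins, had a median of -0.04 over 9 genes. Of these, 1 was higher and 3 lower at an unadjusted p under 0.05, against 8.26% and 11.9% of all genes. The COP9 subunits went both ways, with 0.54 for Cops8 (adjusted p = 0.117 in limma), -0.41 for Cops4 and -0.31 for Cops3. The 11 measured eIF3 genes had a median of 0.08, with 3 higher and 0 lower. They were led by Eif3b at 0.32, Eif3d at 0.30 and Eif3a at 0.31. The 8 genes of CCT, which folds actin and tubulin, had a median of 0.25, and all 8 were higher in all 3 mice. Of these 8, 5 were higher at an unadjusted p under 0.05, and the same number had groups that did not overlap. Among all genes 19% were higher in all 3 mice, and 8.67% were higher without overlap. Cct3 changed by 0.37, Cct8 by 0.28 and Cct6a by 0.33. Thus the lid values of 0.32, 0.15 and 0.12 in the 3 mice stood beside CCT values of 0.35, 0.18 and 0.16. The 6 measured genes for ubiquitin activation and p97 cofactors had a median of 0.11, or 0.03 without mouse 2, with Uba6 at 0.37, Sqstm1 at 0.24 and Nploc4 at 0.22.

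**Figure D4:**
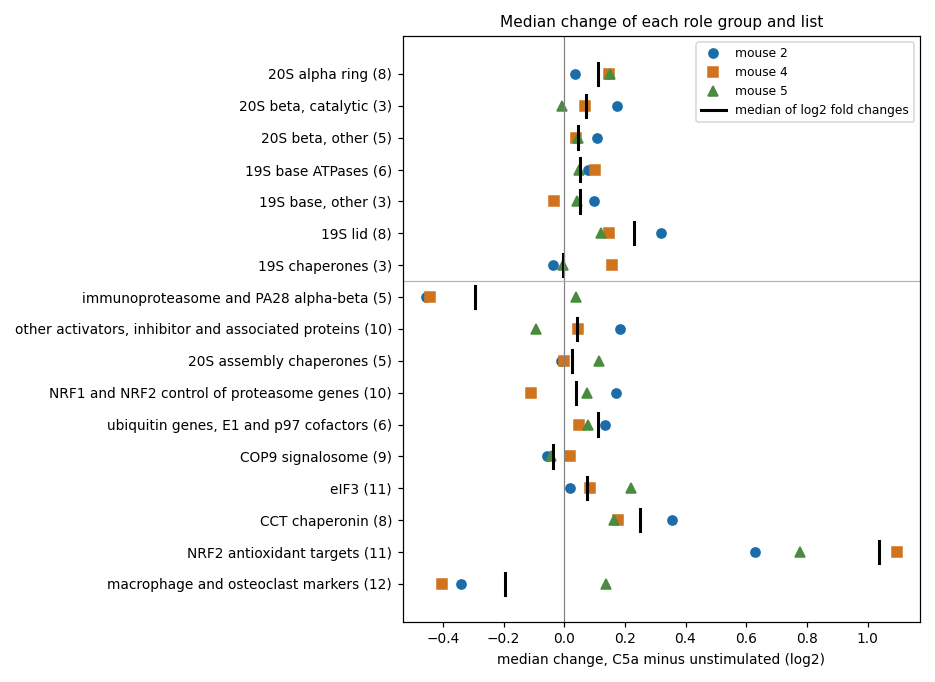
Median log2 change with C5a of each proteasome role group (above the line) and of the other lists (below it), with the number of genes in brackets; points are the medians in single mice and black bars the medians of the 3-mouse changes. The lid and CCT lie above 0 in every mouse. So do the alpha ring, the non-catalytic beta group, the ATPases, the ubiquitin genes, eIF3 and the NRF2 targets. The immunoproteasome and macrophage lists lie below 0 in mice 2 and 4 and above it in mouse 5. The bar of the NRF2 targets stands at 1.04.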

How the data were processed

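Total RNA of 6 osteoblast cultures (3 unstimulated, 3 with C5a) was hybridised to Mouse Gene 1.0 ST arrays, 1 array per culture. The deposited values are log2 intensities per probeset, which the authors obtained by RMA with Expression Console of Affymetrix and BRB-ArrayTools. Versions are not given in the sources used here, and the methods name passage 2 where the labels name passages 2 to 3. The shorter stimulation that the methods name was not analysed here.

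These values of all 35556 probesets were tested with limma 3.58.1 in R 4.3.3 (lmFit and eBayes, mouse as a block, no filter), with Benjamini-Hochberg adjustment over all of them. Unadjusted p-values in the text come from this fit unless the fit without pairing is named. Probesets were named through the platform annotation: 21789 name 1 gene, 1621 several and 12146 none. A gene is represented by its probeset with the highest mean value. All 36 proteasome genes matched the gene table of RefSeq by Entrez ID. The labels number the cultures 2, 4 and 5 in both groups, and the series' design text says that the cells of each mouse were divided between the treatments, so the number was taken as the mouse. Deviations from group means correlated at 0.495 to 0.684 within the 3 mice and at -0.446 to -0.0353 between cultures of different mice. Each group of 3 was centred on its own mean, so positive values within mice bring negative ones between mice. The p-values of the paired fit set the mean change against the spread of the 3 within-mouse changes, which limma moderates over all probesets. With 1 culture and 1 array per mouse and group, variation between mice, cultures and arrays cannot be told apart in this spread. The number of arrays limits the precision of the p-values.

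The members and the gene lists were chosen with earlier results of these data known. Every proteasome gene is named. Values on all 6 arrays are given for the 8 with the smallest p and for Psmb5, Psmb6, Psmb7, Psmd14, Psma8 and Psmb11. Other lists are represented by up to 3 genes with the smallest p and by Psmb8, Psmb9, Psmb10, Psme1, Psme2, Nfe2l1, Nfe2l2, Pomp and Usp14. Listed genes without a probeset of their own stayed out. Promoter windows came from a RefSeq table of GRCm38.p6, and each motif was searched on both strands. The steps were tested on simulated data. Alternatives were the fit without the pairing, the methods' t-test (equal variances, unpaired), a paired form of it, a filter at the 40th percentile, robust estimation with a variance trend, single-gene probesets only, median centring, quantile normalization, other probesets per gene, and leaving out each mouse.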

Additional observations from a re-analysis of the deposited data

How the results depend on the processing

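The pairing by mouse is part of the test used. With no replicate block, 8 instead of 7 genes were higher at an unadjusted p under 0.05 (6.2% of all genes in that fit), and 0 passed the adjusted threshold either way. At the same unadjusted level the methods' t-test placed 10 higher, and 4.92% of all genes. When 1 mouse was left out, between 2 genes (without mouse 2) and 4 genes (without mouse 5) were higher at this level, with 3 without mouse 4, where 4.69%, 8.48% and 5.48% of all genes were higher without mice 2, 4 and 5. The median change then lay between 0.088 without mouse 2 and 0.12 without mouse 5. Counts over all 3 mice were not made in those fits. Without Psma8, Psmb11 and the 19S chaperones the median was 0.12. Under median centring 0 genes were lower in all 3 mice. Psmd11 passed the adjusted threshold when single-gene probesets alone were tested (adjusted p = 0.0461) or when the probesets of a gene were averaged (adjusted p = 0.0473). It was then 1 gene of the 36, and 795 and 737 features passed in all, where 4 did in the reported fit. With the filter at the 40th percentile, which removes Psma8, 373 probesets passed and 0 of them were proteasome genes. Over 13 alternatives the change of Psmd11 lay between 0.42 and 0.56 and its adjusted p between 0.0461 and 0.521. The median of the ATPases moved to 0.01 without mouse 4 and to 0.10 without mouse 5, that of the alpha ring to 0.19 and that of the ubiquitin genes to 0.03, both without mouse 2. The cause of these shifts was not tested. No called change turned its direction, and the other 366 recomputed values kept their side of the threshold or moved by less than the spread. With 3 pairs, changes under 0.20 could not reach an unadjusted p of 0.05 at the median error.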
